A study of Mus musculus with 18 samples.

Results

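The ratio of ribosome footprints to RNA was measured gene by gene in the left ventricle of 4 wild-type mice. A gene was included when its normalized reads averaged at least 10 over the 4 hearts both in RNA and in footprints, which left 9965 of the 10597 listed genes (94.0%). The animals were male C57BL/6 mice aged 20 weeks that had received no treatment and carried no deletion. Each ventricle gave 1 library of poly-A RNA and 1 library of footprints, so 8 of the 18 libraries of the series were used. The remaining libraries come from mice lacking mORF4/NBDY and were not used here. The hearts are numbered 1 to 4 as in the labels, and the footprints of a heart were divided by the RNA of the same heart.

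A footprint is the piece of mRNA that a ribosome shields from nuclease digestion, so footprints count ribosomes on a message while poly-A RNA counts the message itself. Their quotient is commonly called translational efficiency. In heart muscle it is known to differ widely between messages. Messages for ribosomal proteins and elongation factors begin with a run of pyrimidines, the terminal oligopyrimidine (TOP) tract, through which mTOR signalling controls how many of them enter polysomes. Other messages carry short upstream open reading frames (uORFs) or bind regulatory proteins, which can hold ribosomes back from the main coding region.

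The starts of such messages are shown here because many genes with a low ratio encode ribosomal proteins and elongation factors, which are known for the TOP tract. Atp5e, which belongs to neither group, is shown beside them. Each line gives 10 bases before to 20 bases after an annotated RefSeq start on GRCm38.p6, 5′ to 3′ on the sense strand. Capitals mark a C followed by at least 6 bases that are each C or T, called the tract below. Such a run may lie anywhere in the window. It need not begin at the first base of a message, so it is not shown to be a TOP tract. The windows are Rpl28 at chr7:4792955-4792984 (plus strand), Rps24 at chr14:24490668-24490697 (plus), Rplp2 at chr7:141447641-141447670 (plus), Rack1 at chr11:48800350-48800379 (plus), Eef1a1 at chr9:78481705-78481734 (minus) and Atp5e at chr2:174464082-174464111 (minus).
Rpl28: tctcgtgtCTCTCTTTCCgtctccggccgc
Rps24: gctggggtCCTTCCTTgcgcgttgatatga
Rplp2: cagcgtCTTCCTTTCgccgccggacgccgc
Rack1: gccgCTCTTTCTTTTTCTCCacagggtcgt
Eef1a1: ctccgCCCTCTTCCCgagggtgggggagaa
Atp5e: gtccgcgtaccccaCCCCTTCCgctactca

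These 6 windows were picked among those that hold the tract. Rps24, Rplp2, Rack1 and Eef1a1 were chosen after their ratios were seen. The ratios of the 6 genes lie far apart, which is a description of this choice only. Rps24 has another annotated start, at chr14:24490743-24490772, whose window does not hold the tract. Relative to the median gene, the log2 ratio was -9.87 ± 1.03 for Rpl28, a protein of the large ribosomal subunit (all values of this form are mean ± SD over the 4 hearts, n = 4). It was -5.37 ± 0.28 for Rps24, of the small subunit, and -4.38 ± 0.20 for the elongation factor Eef1a1. Rplp2, of the ribosomal stalk, was at -0.94 ± 0.26 and Rack1, a scaffold on the small subunit, at -0.10 ± 0.39. Atp5e, the epsilon subunit of mitochondrial ATP synthase, was at 5.71 ± 0.45. Rpl28, Rps24, Rplp2 and Eef1a1 have named pseudogenes, so their ratios are uncertain, as described below. Rack1 and Atp5e have none. Over all RefSeq starts, 13.5% of the 32851 windows of this length hold the tract on the sense strand and 15.6% on the opposite strand. Of the member genes with a start in the table, 16.9% of 7952 hold it, against 24 of 51 (47.1%) cytosolic ribosomal protein genes. Within those 51 genes the median log2 ratio was -4.38 with the tract and -5.42 without it. Among members without near-identical copies the medians were -0.06 with the tract (1280 genes) and 0.06 without it (6378 genes).

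The listed genes held 11172198 to 12363740 reads per RNA library and 6671555 to 36702120 per footprint library, with heart 2 the shallowest. Each footprint read of heart 2 counts as 3.45 normalized reads, so its low values are the least precise. All 10 cardiomyocyte markers were members and together took 14.2% ± 0.506 of RNA and 13.5% ± 0.465 of footprints. Across genes, correlations between hearts were 0.982 to 0.988 for log2 RNA, 0.931 to 0.978 for log2 footprints and 0.882 to 0.961 for the log2 ratio. These describe genes, which are not independent replicates. RNA and footprints were processed with different library kits, so any property of the kits and the ribosome load of a message cannot be told apart.

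Near-identical copies of genes touched many values and are described before the results. In 19 of 23 pairs of a gene and its named pseudogene, the pseudogene was listed with more than 50% of the RNA of the gene, with a median of 78.5% over the 23 pairs. Fabp3-ps1, for example, was listed with 97.5% of the RNA of Fabp3, the fatty acid carrier of heart muscle, but with 5124 footprints against 22576. In 16 of the 23 pairs the pseudogene had under 10 normalized footprints. Taken as genes with copies were those with a named pseudogene, in a family of near-identical genes, called a pseudogene by RefSeq or without a RefSeq match. These 431 members had a median log2 ratio of -2.54, and the ratio was lower with more copies. The median was 0.02 with no named pseudogene (9713 genes), -1.70 with 1 (159 genes), -2.67 with 2 (45 genes) and -4.66 with 3 or more (48 genes). The counting of reads that match several copies is not described in the labels or headers, and its part in these ratios was not tested. Ratios of genes with copies are therefore uncertain, and where a list has such genes its counts are also given without them. The families were drawn up by gene name and are not complete. Atp5g1, Atp5g2 and Hnrnpa1, for example, are outside them and may have close copies too, so counts without copies may still hold such genes.

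**Figure D1:**
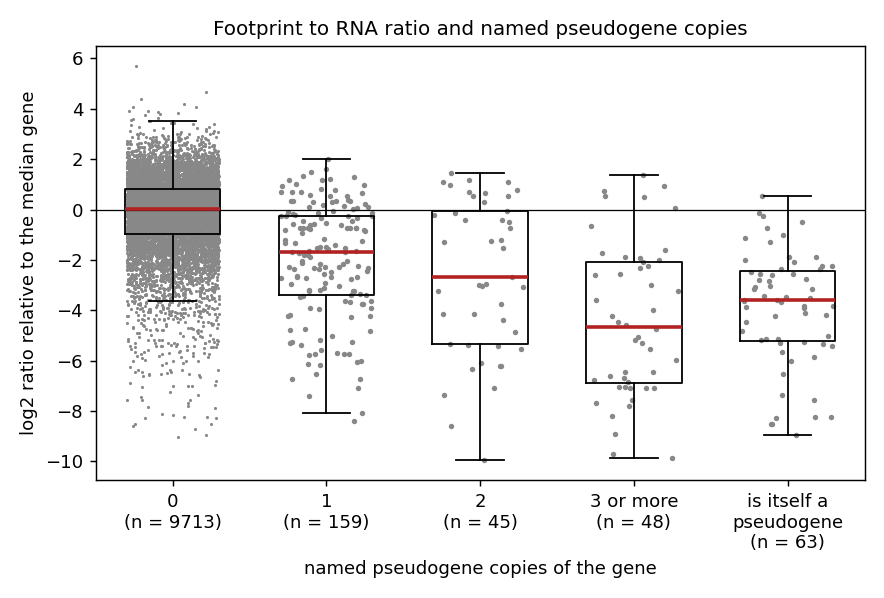
Log2 footprint to RNA ratio relative to the median gene (vertical axis) of every member, grouped by the number of named pseudogene copies (horizontal axis), with the 63 members that are pseudogenes shown again at the right. Boxes span the middle 50% of genes, red lines are medians and whiskers show the range without far points. Medians step down from 0.02 with no named pseudogene to -4.66 with 3 or more.

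The ratio spread far more between genes than between hearts. In heart 1, 2, 3 and 4 the median gene had 1.42, 1.40, 1.44 and 1.44 footprints per RNA read on the deposited scale, which has no absolute unit. All log2 ratios below are relative to that median. The middle 50% of genes lay between -0.9999 and 0.82, and 5% lay below -3.08 and 5% above 1.84. The median gene had an SD of 0.28 over the 4 hearts. A gene was called high or low where its ratio lay more than 2-fold from the median gene by limma's treat test, with a Benjamini-Hochberg adjusted p below 0.05 over all 9965 genes. By this rule 1212 genes (12.2%) were high and 1738 (17.4%) were low, or 29.6% together. Counts in the lists below are to be read against these shares. Of the 431 genes with copies 61.7% were low and 3.25% high, and of the other 9534 genes 15.4% were low and 12.6% high. The low tail was the longer: 278 genes lay below -4, of which 138 had copies, and 6 lay above 4.

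Footprints followed RNA only in part. Across genes within a heart, Pearson's r between log2 RNA and log2 footprints was 0.66 to 0.70 and Spearman's rho 0.66 to 0.69. Without the genes with copies, r was 0.71 to 0.75. The ratio was lower for genes with more RNA reads. From the fifth of genes with the fewest RNA reads to the fifth with the most, its median was 0.45, 0.12, -0.01, -0.21 and -0.40. Without the genes with copies the last of these was -0.29. RNA reads are part of the ratio itself, so this order is a description only.

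**Figure D2:**
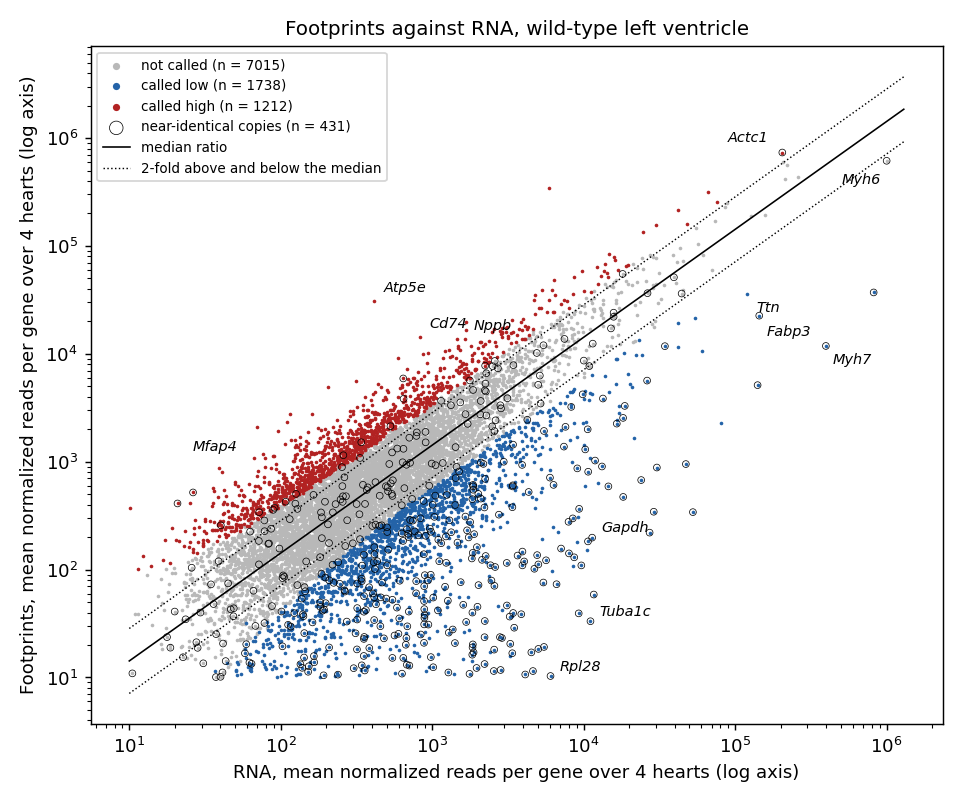
Mean normalized footprints (vertical, log axis) against mean normalized RNA (horizontal, log axis) over 4 hearts for 9965 genes, in red where called high (1212), in blue where called low (1738) and in grey otherwise; black rings mark the 431 genes with near-identical copies. The solid line is the median ratio and the dotted lines are 2-fold above and below it; of the 278 genes with a log2 ratio below -4, 138 are ringed.

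Among genes with at least 100 RNA reads, Atp5e (chromosome 2, 174461075 to 174464101, GRCm38.p6, protein-coding) had the highest ratio. Its RNA was 468, 401, 471 and 319 normalized reads in hearts 1 to 4, and its footprints were 28481, 31711, 27067 and 36304. Every heart had far more footprints than RNA reads, and the ratio was 52.5 times that of the median gene (limma treat adjusted p = 1.1e-09). Hsbp1, which binds heat shock factor 1, stood at 4.08 ± 0.25. Mrps14, a protein of the small mitochondrial ribosomal subunit, stood at 4.07 ± 0.36, and Smim7, a small membrane protein, at 3.92 ± 0.40. Ndufc1, a subunit of respiratory complex I, was at 3.61 ± 0.29. Sspn, sarcospan of the dystrophin complex, was at 3.53 ± 0.52, and Tmsb4x, the actin-binding thymosin beta 4, at 3.42 ± 0.35. Cd74, the invariant chain of antigen presentation, was at 3.56 ± 0.25. All 8 genes were called, with a limma treat adjusted p of at most 4.5e-07, and lay above 2.9 in each heart.

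The other 2 genes of the top 10 rested on uneven hearts. Gm20594 (chromosome 6, 79818031 to 79818364) had 54142, 1145900, 79474 and 111060 footprints in hearts 1 to 4 on 4656 to 6872 RNA reads. Heart 2 stood an order of magnitude above the others, and the log2 ratio was 3.04, 6.95, 3.30 and 3.49. With a mean of 4.20 it ranked between Atp5e and Hsbp1. Myl7, the atrial myosin light chain, had 266, 212, 11.4 and 50.1 RNA reads and 2274, 2288, 1012 and 1204 footprints. Hearts 1 and 2 were high in both assays, and the log2 ratio was 2.59, 2.94, 5.83 and 4.04.

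The 10 lowest called genes with at least 100 RNA reads were the ribosomal protein genes Rpl5, Rpl28, Rpl23a, Rpl10 and Rps23, the tubulin gene Tuba1c, Serf2 and the predicted genes Gm10036, Gm10110 and Gm7808, from -9.96 to -8.53. Rpl28 had 6591, 6099, 5794 and 5698 RNA reads in hearts 1 to 4 and 4.85, 24.2, 4.67 and 7.58 footprints. Footprints of Rpl5 were 0 in heart 1 and at most 27.6 elsewhere, on 4564 to 4685 RNA reads, and the gene overlaps Fam69a. All 5 ribosomal genes and Tuba1c belong to families of near-identical genes, and RefSeq lists Gm10036 and Gm7808 as pseudogenes. Over all 63 members that RefSeq calls pseudogenes, 53 were low and none was high by limma treat, with a median of -3.58. For these and for each list given below as none in a direction, no member reached an unadjusted p below 0.05 in that direction by limma treat, and edgeR on whole reads called none (0 genes). Only 4 members were long noncoding RNAs, of which 3 were low, with a median of -3.29.

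Contractile protein genes lay on both sides of the median. Of 39 sarcomere genes 8 were high, 10 low and 21 not called, with a median of 0.05, while 12.2% and 17.4% of all genes were called high and low. Of the 34 without near-identical copies 7 were high and 8 low, and without pairing by heart the counts for all 39 were 5 high and 9 low. Actc1, cardiac actin, had 212910, 215530, 207090 and 184900 RNA reads and 764620, 748890, 723150 and 700860 footprints in hearts 1 to 4, the most footprints of any gene on average. In heart 2 Gm20594 had more, and in heart 3 Myh6. The log2 ratio of Actc1 was 1.33 ± 0.05 (limma treat adjusted p = 0.0066), though other actin genes are near-identical to it. Tnnc1, the calcium sensor of the thin filament, was at 1.86 ± 0.18 and Myl3, the ventricular essential light chain, at 1.73 ± 0.07. Both were high in each heart. Tpm1, cardiac tropomyosin, was at 0.82 ± 0.05, Myl2, the ventricular regulatory light chain, at 0.44 ± 0.13 and Tnnt2, troponin T, at -0.21 ± 0.05, and none of these 3 was called. Ttn, the giant spring of the sarcomere, had 116720, 113110, 117700 and 133840 RNA reads against 43555, 31066, 37667 and 30905 footprints. Each heart had fewer footprints than RNA reads, and the log2 ratio was -2.27 ± 0.30 (limma treat adjusted p = 2.9e-06). Xirp2, which binds actin at the intercalated disc, was low at -4.20. The part of transcript or protein length in this was not tested.

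Myosin heavy chains form a family of near-identical genes, so the ratio of each is uncertain. Myh6, the fast heavy chain of adult mouse ventricle, had 919780 to 1192500 RNA reads and 473700 to 759110 footprints, with a log2 ratio of -1.22 ± 0.27 that was not called. Myh7, the slow heavy chain, had 315520 to 597500 RNA reads but 5550 to 25983 footprints, at -5.82 ± 0.55. Myh4 and Myh1, heavy chains of fast skeletal muscle, were listed with 22173 to 41785 and 22763 to 44366 RNA reads and stood at -6.88 ± 0.34 and -5.66 ± 0.44. In all 4 hearts these 2 genes had at most 1346 footprints. Myl4, an atrial light chain that overlaps Cdc27, was low at -3.96 ± 0.95 and Myh7b, which overlaps Trpc4ap, at -5.61 ± 0.41.

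Few calcium handling and channel genes were called. Of 36 such genes 2 were high and 4 low, with a median of -0.15, and of the 35 without copies also 2 and 4. Among all genes 12.2% were called high and 17.4% low. Kcnj2, the inward rectifier that sets the resting potential, was high at 2.05 ± 0.16, and so was Atp1b1, the beta subunit of the sodium pump, at 1.35 ± 0.08. The repolarizing potassium channel Kcnd3 was low at -1.70 ± 0.17. The calcium pump Atp2a2, among the 10 genes with the most reads in either assay, stood at 1.01 ± 0.17, its inhibitor Pln at 0.14 ± 0.40 and the release channel Ryr2 at -0.76 ± 0.25, none of them called. As a share of all reads the list took 3.06% ± 0.0958 of RNA and 4.53% ± 0.357 of footprints.

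Nppb and Nppa, which encode natriuretic peptides, carried many footprints per message. These hormones are released by stretched heart muscle and lower blood pressure. Nppb (chromosome 4, 147985786 to 147987205) had 2048, 1758, 1466 and 1286 RNA reads and 16340, 14758, 12460 and 10791 footprints in hearts 1 to 4. RNA and footprints were both highest in heart 1 and lowest in heart 4, and the log2 ratio was 2.49, 2.58, 2.56 and 2.55 (limma treat adjusted p = 5.2e-08). Nppa had 7219, 4006, 4995 and 2907 RNA reads and a log2 ratio of 1.84, 2.05, 1.82 and 1.11, with heart 4 lowest in RNA, footprints and ratio. Its call (limma treat adjusted p = 0.00093) was lost when the libraries were not paired by heart (adjusted p = 0.148). Npr3, the clearance receptor for these peptides, was high at 1.54, a call lost without heart 1 or 4. The other 6 genes of the list of 9 were not called, and the median of the list was 0.0083, close to the median gene. Among those 6, Rcan1, an inhibitor of calcineurin, stood at -0.67 ± 0.37. Furin, a protease that cleaves hormone precursors, was at -1.12 ± 0.45.

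Nuclear genes of oxidative phosphorylation had a list median above the median gene. Of 82 members 36 were high, 12 low and 34 not called, with a median of 1.10, or 1.27 for the 73 without near-identical copies, of which 36 were high and 6 low. The share of reads that the list took was 5.29%, 5.29%, 5.30% and 5.10% of RNA in hearts 1 to 4, and 9.04%, 9.47%, 9.08% and 9.57% of footprints. The footprint share was the larger in each heart. Atp5b, the catalytic beta subunit of ATP synthase, had 73680 to 77832 RNA reads and 228670 to 283570 footprints, at 1.22 ± 0.09. Its call (limma treat adjusted p = 0.043) was lost without heart 1, 3 or 4 and without pairing by heart (adjusted p = 0.0780). It was also lost with a minimum mean of 50, with scaling to the sum of the listed genes, with 1 median for all hearts, with the deposited ratio and without genes with copies (adjusted p = 0.0523 to 0.115). Sdhc, a membrane anchor of complex II, stood at 3.04 and Cox4i1, a subunit of cytochrome c oxidase, at 2.00. The 3 genes for the c subunit of ATP synthase, which encode the same mature protein, fell on opposite sides. Atp5g1 had 9180 to 12249 RNA reads and 130 to 179 footprints, at -6.63 ± 0.07, and Atp5g2 was at -7.57 ± 0.34, while Atp5g3 was high at 1.29, a call lost without heart 1 or 4. None of the 3 is in a family listed here, so the low values of Atp5g1 and Atp5g2 count among the 6, but they are uncertain. Cox7a2l, a factor of respiratory supercomplexes, was low at -6.24, on means of 9026.5 RNA reads and 179 footprints. Cox7a2l has no listed copies either, and whether it has close copies was not tested. Mitochondrially encoded subunits were not analysed here.

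Genes of fuel oxidation also had list medians above the median gene. Of 30 fatty acid oxidation genes 8 were high and 2 low, or 12 and 2 without heart 2, with a median of 1.00, and both low genes, Fabp3 and Hadhb, have copies. Of the 28 without copies 8 were high. Acaa2, the last enzyme of the beta-oxidation spiral, was at 2.04 ± 0.22 and Eci1, an enoyl-CoA isomerase, at 1.99 ± 0.14. Of 24 genes of the citric acid cycle and pyruvate oxidation 6 were high and 1 low, with a median of 0.46, and of the 23 without copies also 6 and 1. Idh3a, of the NAD-dependent isocitrate dehydrogenase, had 6182, 6224, 6074 and 6435 RNA reads and 39386, 37947, 36229 and 43333 footprints, at 2.14 ± 0.08. Cs, citrate synthase, was high at 1.58. Mdh1, cytosolic malate dehydrogenase, was high at 1.92 and Got1, cytosolic aspartate aminotransferase, at 2.08 ± 0.09. Both are cytosolic enzymes, outside the mitochondrial cycle, but Got1 is on the list and counts among its high genes. Got2, another aspartate aminotransferase on the list, was not called at -0.75 ± 0.28 and has a named pseudogene. Suclg2, of the GTP-forming succinyl-CoA ligase, was the low gene at -1.73 ± 0.22.

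Genes of sugar and phosphocreatine metabolism were called in both directions. Of 18 glycolysis genes 3 were high and 4 low, with a median of 0.53, while 12.2% and 17.4% of all genes were called high and low. Without heart 2 the counts were 5 and 4, and of the 13 without copies 3 were high and 2 low. The high genes included Slc2a4, the insulin-regulated glucose transporter, at 1.97 ± 0.20, and Eno3, muscle enolase, at 1.77 ± 0.23, which overlaps Pfn1. Gapdh had 12596, 11480, 11273 and 10186 RNA reads against 230, 96.6, 224 and 240 footprints, and Pgk1 stood at -6.10 ± 0.73, but both genes have several pseudogenes. Of 8 creatine and adenylate kinases 1 was high and 2 low, and the same counts held for the 7 without copies. Ckmt1 was low at -2.35 ± 0.25, and the calls of Ak3 (1.37 ± 0.36, overlapping Cdc37l1) and Ak4 (-1.51 ± 0.38) were lost without pairing by heart, without heart 1 and without 1 or more of the others. The abundant muscle forms Ckm and Ckmt2 were not called, at 0.63 ± 0.26 and 0.69 ± 0.12.

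**Figure D3:**
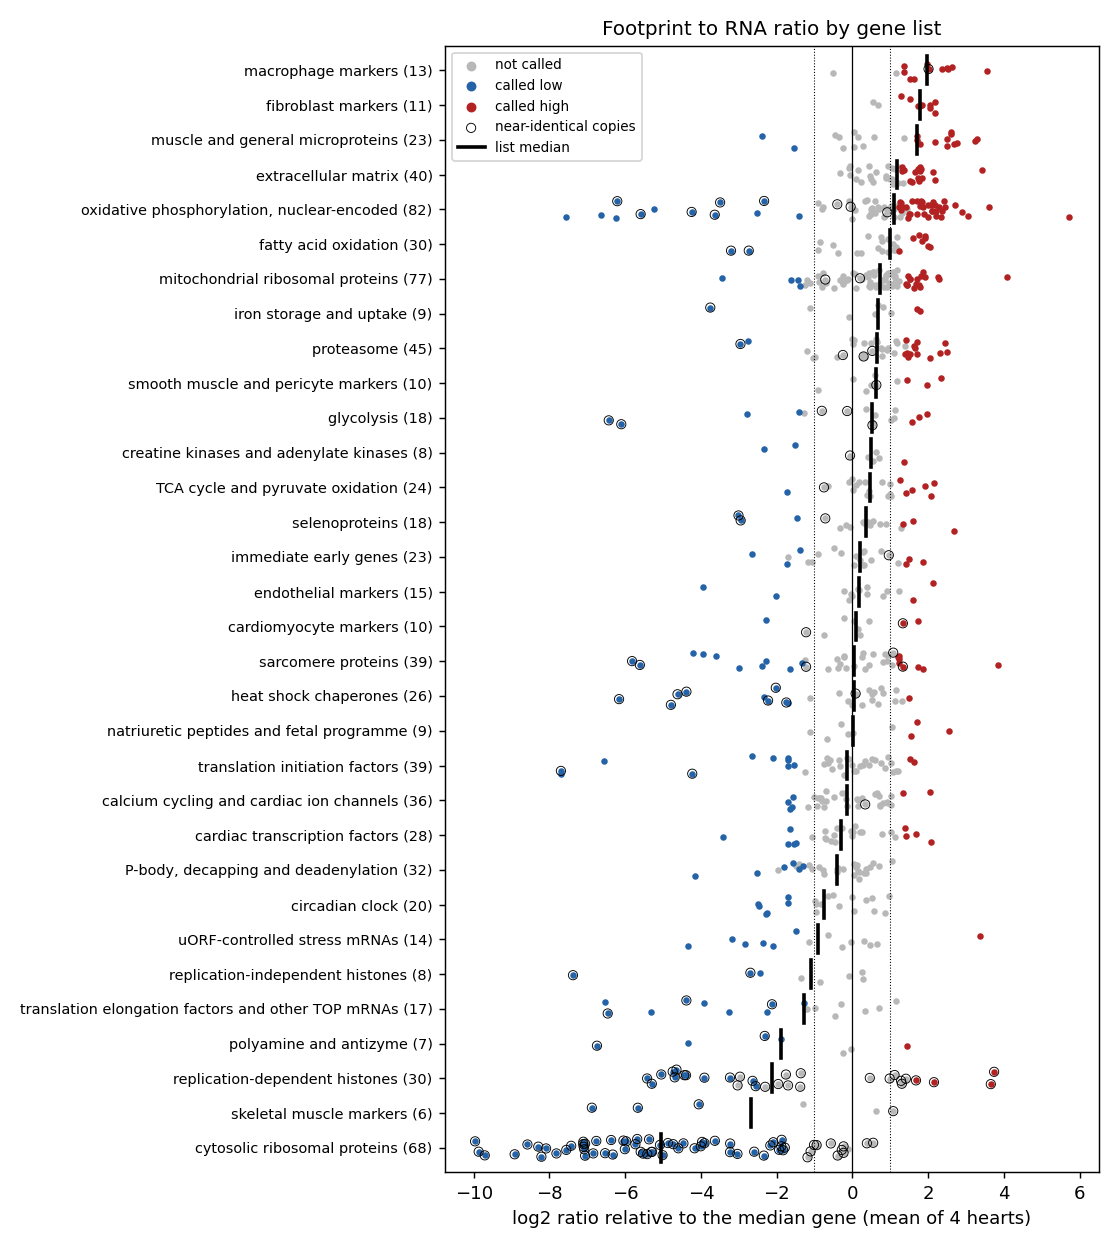
Log2 footprint to RNA ratio relative to the median gene (horizontal axis, mean of 4 hearts) of each member of each gene list with at least 6 members (vertical axis, number of members in brackets), ordered by the list median (black bar). Macrophage markers, fibroblast markers and microproteins lie farthest right with medians of 1.97, 1.80 and 1.71, and cytosolic ribosomal proteins farthest left at -5.05, where nearly all points are ringed as genes with copies.

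Cytosolic ribosomal protein genes had the lowest median of the lists with at least 6 members. Of 68 cytosolic ribosomal protein genes (1 of which, Rps6kl1, encodes a kinase-like protein that shares only the name) 55 were low and none high by limma treat, with a median of -5.05. With a minimum mean of 50 in place of 10 the median was -3.28. All but Rack1 were put in the family with near-identical copies by their names, Rps6kl1 included, so no count without copies is given. The list took 1.72% ± 0.0948 of RNA and 0.182% ± 0.0236 of footprints. A further 19 ribosomal protein genes were left out by the minimum on footprints. Mitochondrial ribosomal proteins are made on the same cytosolic ribosomes and imported. Of 77 such genes 17 were high and 4 low, with a median of 0.73, and of the 75 without copies also 17 and 4. Mrps14 had 134, 125, 119 and 82.5 RNA reads against 2659, 3876, 2308 and 2348 footprints, and Mrps6 was at 2.30 ± 0.41. Mrpl42 was the lowest at -3.43 ± 0.64, on 9648 to 10421 RNA reads.

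Elongation factors and other genes whose messages are known for TOP regulation were low or not called. Of 17 genes 9 were low and none high by limma treat, with a median of -1.28, and of the 14 without copies 6 were low. Of the 12 with a start in the RefSeq table, 4 (33.3%) hold the tract as searched here. Eef1a1, the tRNA-delivering factor of most tissues, had 13050, 14575, 12667 and 12578 RNA reads and 778, 884, 951 and 998 footprints, whereas its muscle counterpart Eef1a2 had 29528 to 33659 RNA reads and 52307 to 62713 footprints. Their log2 ratios were -4.38 ± 0.20 and 0.33 ± 0.03. Eef1a1 has named pseudogenes and Eef1a2 has none. Eef2, which moves the ribosome along, was low at -2.12 ± 0.52, and Tpt1, the translationally controlled tumour protein, at -6.46 ± 0.68. Both have named pseudogenes, 1 for Eef2 and 7 for Tpt1, so these values are uncertain. Hnrnpa1, an RNA-binding protein, was low at -6.53 ± 0.82. Vim, vimentin, stood highest at 1.15 ± 0.08 without being called, and passed without heart 2. Of 39 initiation factor genes 2 were high and 10 low, with a median of -0.15, and of the 37 without copies 2 and 8. The shares called over all genes were 12.2% high and 17.4% low. The lowest were Eif1 at -7.70 ± 0.66, with named pseudogenes, and Eif3j1 at -7.69 ± 1.83, which overlaps Spg11. Eif4a1, the helicase of the cap-binding complex, was low at -6.55 and Eif4g1, its scaffold, at -1.69. Eif4a1 had means of 1762 RNA reads and 27.3 footprints. It has no listed copies, but close copies outside the families were not tested for, so its value is uncertain. Eif6, which keeps ribosomal subunits apart, was high at 1.62 ± 0.29 and Eif4h, a helper of the helicase, at 1.52 ± 0.05.

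Of 14 stress messages known for uORFs 6 were low and 1 high, with a median of -0.90, and no member has listed copies. Ppp1r15a, which reverses the phosphorylation of eIF2, had 1357, 1505, 1243 and 1109 RNA reads and 69.7, 107, 157 and 55.3 footprints, at -4.34 ± 0.61. The transcription factors of the integrated stress response lay in the same direction. Atf4 was at -2.35 ± 0.50 and Atf5, which overlaps Nup62, at -2.84 ± 0.55, both low in each heart. Ddit3 was at -3.18 ± 2.86 with no footprint in heart 2; it overlaps Mars and Mbd6, and its call was lost without heart 3, without pairing by heart and with a pseudocount of 0.5. Uchl1, a ubiquitin hydrolase on the same list, was high at 3.37 ± 0.37 on 19 to 51.6 RNA reads. Cebpb, a factor of macrophages and stress, stood at 0.65 ± 0.28.

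Odc1, the first enzyme of polyamine synthesis, had 881, 912, 919 and 879 RNA reads and 71.5, 86.3, 52.9 and 44.7 footprints, at -4.35 ± 0.43. Its antizyme Oaz1 was at -6.74 ± 0.65, with a named pseudogene, and the antizyme inhibitor Azin1 was high at 1.45 ± 0.22, a call lost without heart 1. In all, 4 of 7 polyamine genes were low and 1 high, with a median of -1.88, or -0.24 for the 5 without copies, of which 2 were low and 1 high. Ferritin messages are known to be held back by iron regulatory proteins through a stem-loop. The ferritin chains Fth1 and Ftl1 stood at -1.13 ± 0.36, not called, and -3.75 ± 0.55, low but with pseudogenes. The transferrin receptor Tfrc and the iron exporter Slc40a1 were high at 1.70 ± 0.11 and 1.79 ± 0.36. Of 9 iron genes 2 were high and 1, Ftl1, low. For this list and the selenoproteins, the shares called over all genes were 12.2% high and 17.4% low. Of 18 selenoprotein genes, whose messages read a stop codon as selenocysteine, 3 were high and 3 low, with a median of 0.37, and of the 15 without copies 3 and 1. Selenof was at 2.69 ± 0.34, Msrb1 at 1.60 ± 0.22 and Gpx4, which has pseudogenes, at -2.95 ± 0.33.

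Of 20 circadian clock genes 6 were low and none high by limma treat, with a median of -0.74. For this list and the others of this paragraph, the shares called over all genes were 12.2% high and 17.4% low. The repressors Per1, Per2 and Per3 were all low, at -2.46 ± 0.24, -2.27 ± 0.12 and -2.25 ± 0.78. The call of Per2 was lost when the libraries were not paired by heart (limma treat adjusted p = 0.0628). RNA of Per2 was 124, 202, 617 and 394 reads in hearts 1 to 4 and its footprints were 35.8, 65.6, 173 and 110. Both were highest in heart 3 and lowest in heart 1, so the ratio stayed between -2.35 and -2.10. Their activators Clock and Npas2 were low as well, at -1.71 and -2.50 ± 0.40, and Cry1 was not called at 0.96 ± 0.48. Of 28 cardiac transcription factors 4 were high and 5 low, near the shares over all genes, with a median of -0.30. Srf, the serum response factor, had 3217, 3248, 3158 and 2658 RNA reads and 418, 559, 442 and 270 footprints, at -3.41 ± 0.33, and Mef2d was at -1.70 ± 0.07. Ppara, the lipid-sensing factor of fat oxidation, was high at 2.08 ± 0.25, and so was Hopx, a homeodomain protein without DNA binding, at 1.69 ± 0.18. Of 23 immediate early genes 3 were high and 3 low, or 1 and 2 without pairing by heart, and 3 and 3 of the 22 without copies, with Egr1 at -2.65 ± 0.50, Klf4 at -1.73 ± 0.25, Ier3 at 1.86 ± 0.45 and Btg2 at 1.50 ± 0.11, the last lost without heart 1 and without pairing.

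Most genes of mRNA decay were not called. Of 32 P-body, decapping and deadenylation genes 6 were low, none high by limma treat and 26 not called, with a median of -0.40. Among all genes 12.2% were called high and 17.4% low. Cnot3, of the deadenylase complex, was at -2.51 ± 0.28, though it overlaps Leng1, and Lsm6, of the ring that marks deadenylated messages, at -4.15 ± 1.65. Nbdy (X, 153723477 to 153741302) encodes the microprotein that binds the decapping complex and is deleted in the mice not used here. Its RNA was 116, 114, 113 and 100 reads and its footprints were 107, 355, 151 and 119. Heart 2 stood above the others in footprints alone, and the log2 ratio was -0.61, 1.15, -0.10 and -0.28, close to the median gene. Without heart 2 its mean turned from 0.04 to -0.33.

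Microproteins as a list lay on the high side. Of 23 genes that encode very short proteins 12 were high and 2 low, with a median of 1.71. Mtln, which supports respiration in mitochondria, was at 3.28 ± 0.69, and Tomm6, of the outer membrane import pore, at 3.25 ± 0.38, though it overlaps Frs3. Usmg5, a small subunit of ATP synthase that overlaps Taf5, was low at -2.37 ± 0.29, and so was Smim15 at -1.55 ± 0.33, whose call was lost without heart 1 or 3 and without pairing by heart. Over all alternatives tried, the list median stayed between 1.496 and 1.81.

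Protein turnover and folding were described by another pair of lists. The shares called over all genes were 12.2% high and 17.4% low. Of 45 proteasome genes 13 were high and 2 low, with a median of 0.66, and of the 41 without copies 13 and 1. Psmb4, of the core particle, was at 2.49 ± 0.11, and Psmd6, of the lid, at 2.45 ± 0.25, while the core subunits Psma5 and Psma3 were low at -2.95 ± 1.07 and -2.77 ± 0.27, the former with a named pseudogene and so uncertain. Of 26 heat shock chaperone genes 1 was high and 9 low, with a median of 0.04, or 0.51 for the 18 without copies, of which 1 was high and 2 low. Without heart 2, 3 of the 26 were high. Hspa8, the constitutive cytosolic chaperone, had 42951 to 55811 RNA reads and 797 to 1242 footprints, at -6.16 ± 0.39, but has near-identical relatives. Hspa5, the chaperone of the endoplasmic reticulum, was the high gene at 1.49 ± 0.06 and overlaps Rabepk. Replication-dependent histone genes were all taken as having near-identical copies, and their messages lack a poly-A tail. Of 30 replication-dependent histone genes 12 were low and 4 high, with a median of -2.13 that turned to 0.94 with a minimum mean of 50. Hist1h4d had 19.5 to 31.2 RNA reads and 392 to 618 footprints, at 3.74 ± 0.19. Of 8 replication-independent histone genes 3 were low and none high by limma treat, with H3f3a at -7.38 ± 0.86 and H3f3b at -2.69 ± 0.23, 2 genes for the same protein and therefore uncertain. Of the 6 without copies 1 was low, with a median of -0.47.

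Genes of secreted matrix proteins were high or not called. Of 40 extracellular matrix genes 17 were high, 23 not called and none low by limma treat, with a median of 1.17, and no member has listed copies. Mfap4, a microfibril protein, was at 3.43 ± 0.30 and Lum, lumican, at 2.17 ± 0.40. Col1a1, of the main fibrillar collagen, had 1602, 2302, 1165 and 1222 RNA reads and 7213, 12283, 6544 and 5948 footprints, at 1.83 ± 0.14. Both assays were highest in heart 2. Dcn, decorin, was high at 1.52, whereas Col3a1 stood at 0.54 ± 0.20 and Col4a4, of basement membranes, was the lowest at -0.32 ± 0.15. The list took 0.646% ± 0.0643 of RNA and 1.27% ± 0.235 of footprints.

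**Figure D4:**
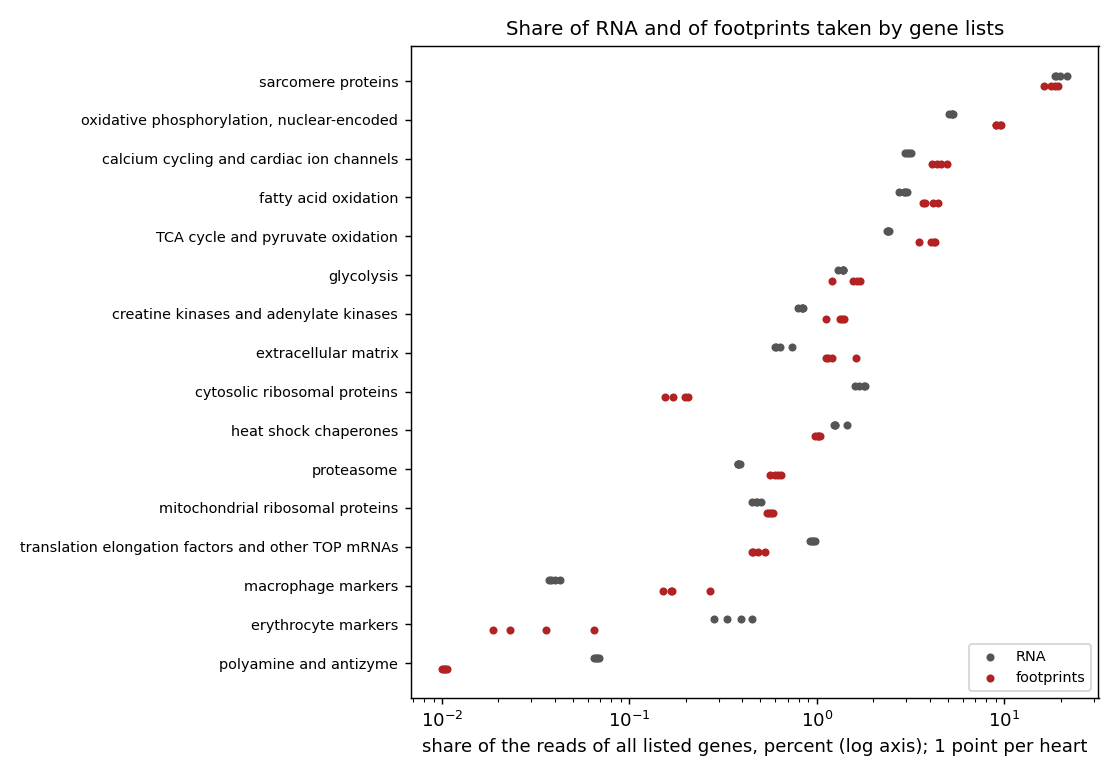
Share of the reads of all listed genes (horizontal log axis, percent) that 16 gene lists (vertical axis) took in RNA (grey) and in footprints (red), with 1 point per heart. In all 4 hearts footprints exceed RNA for oxidative phosphorylation, matrix and macrophage markers and stay below RNA for cytosolic ribosomal proteins and erythrocyte markers.

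Markers of other cell types of the ventricle were described in the same way. In tissue RNA, fewer cells of a type and less RNA per cell cannot be told apart, but both assays came from the same ventricle. Of 13 macrophage markers 11 were high and none low by limma treat, with a median of 1.97. Without heart 2, 8 were high, and of the 12 without copies 10. Together they took 0.040%, 0.043%, 0.038% and 0.037% of RNA in hearts 1 to 4 and 0.166%, 0.270%, 0.168% and 0.152% of footprints. The footprint share was the larger in each heart and was highest in heart 2. Adgre1, the F4/80 antigen, was at 2.63 ± 0.53, Lyz2, a lysozyme, at 2.51, Mrc1, the mannose receptor, at 2.38 and Cd68, a lysosomal marker, at -0.51 ± 0.30. Of 11 fibroblast markers 9 were high and none low by limma treat, with a median of 1.80. This list shares genes with the extracellular matrix list, Lum among them, so the 2 lists are not separate results. Pdgfra, a growth factor receptor, was at 2.06 and Tcf21, a transcription factor of cardiac fibroblasts, at 2.17 ± 0.25. Smooth muscle and pericyte markers gave 3 high genes of 10, or 3 of the 9 without copies, among them Rgs5, a regulator of G protein signalling, at 2.33 ± 0.15 and Tagln, which overlaps Pcsk7, at 1.97 ± 0.06. Myh11, smooth muscle myosin, stood at -0.90 ± 0.21 and Notch3, a receptor of mural cells, at 0.01 ± 0.21.

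Endothelial markers centred on the median gene. Of 15 genes 2 were high and 2 low, with a median of 0.17, near the shares over all genes of 12.2% high and 17.4% low. Aqp1, a water channel, was at 2.14 ± 0.17 and Cav1, of caveolae, at 1.61 ± 0.19. Egfl7, a secreted endothelial protein whose gene harbours a microRNA, had 864, 818, 728 and 717 RNA reads and 49.7, 211, 67.0 and 35.6 footprints, at -3.95 ± 1.07, and heart 2 was the least low. Of 5 erythrocyte markers the 4 globin genes were low, from -5.44 ± 0.46 for Hbb-bt to -3.24 ± 0.81 for Hba-a1, and Alas2, the first enzyme of erythroid haem synthesis, was not called at 0.74 ± 0.40. The globin genes are near-identical within each pair. The erythrocyte markers took 0.283% to 0.452% of RNA and 0.019% to 0.065% of footprints. Of 4 atrial markers 2 were high and 1 low. Lymphocyte markers rested on 2 genes: Igkc, an immunoglobulin light chain, was at 1.39 ± 1.16 and Ighm, a heavy chain, at -0.52 ± 1.06, with heart 4 highest in both.

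Among genes with at least 100 reads in both assays, Tma7, a small translation-associated protein with a pseudogene, had the largest spread. Its RNA was 283, 302, 239 and 244 reads and its footprints were 219, 0, 18.7 and 423, which gave log2 ratios of -0.87, -8.73, -4.13 and 0.27. Rpl30 was at -9.97, -8.47, -8.43 and -3.34 on 3577 to 3760 RNA reads. Synm, an intermediate filament protein of muscle, had 118, 62.1, 1470 and 245 footprints and Nsmf, a synaptic and nuclear messenger, 17.6, 34.5, 375 and 40.9. Both were highest in heart 3 while their RNA varied little, at 258 to 295 and 202 to 269 reads. Hist1h2al, a transcribed pseudogene in RefSeq, was at -6.76, -2.24, -1.15 and -5.48. In each of these 5 genes the footprints varied more between hearts than the RNA did.

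**Figure D5:**
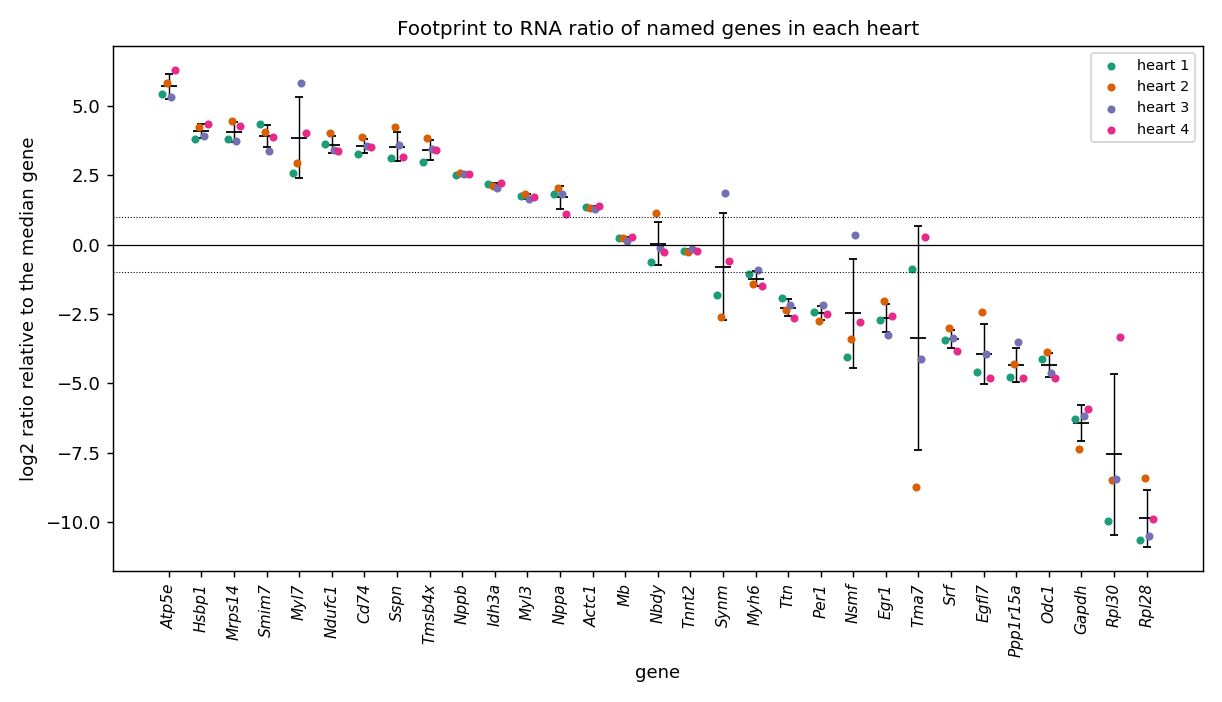
Log2 footprint to RNA ratio relative to the median gene (vertical axis) of 31 named genes (horizontal axis) in hearts 1 to 4 (coloured points), with the mean (bar) and SD (whisker). Nppb, Actc1 and Mb are nearly identical in the 4 hearts, whereas Tma7, Rpl30, Synm and Nsmf spread over several units; dotted lines lie 2-fold from the median gene.

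Of the 632 genes left out, 25 fell short in RNA and 628 in footprints, and 312 had no footprint in any heart. With 1000 or more RNA reads there were 89 such genes, 49 of them without a footprint in any heart. Rpsa, of the small ribosomal subunit, averaged 14328 RNA reads and was listed at 0 footprints in all hearts. It has 12 named pseudogenes, so this value is uncertain. Entpd4 and Entpd4b were listed with the same RNA mean, 2640.7, and both at 0 footprints. The part of reads with several matches in such values was not tested, so 0 footprints need not mean a message without ribosomes. Of the genes left out 115 are pseudogenes and 363 protein-coding. Just inside the footprint minimum lay Inha at 10.0 and Hist1h4i at 10.1, and just outside Rpl27a at 9.94 and Zkscan4 at 9.81. For RNA, Wfdc17 at 10.1 and Hist1h3h at 10.5 were inside, and Hist1h3e at 9.78 and Nmb at 9.62 outside.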

How the data were processed

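The authors deposited, for each library, a normalized read signal per gene, and per the file headers a ratio of footprints to RNA for each heart. The submitters' processing notes name GRCm38 (mm10) and the tools DESeq2, HTSeq and STAR 2.7.1a without roles; the counted region and the treatment of reads with several matches are not given in the sources used here. Per the labels' protocols, TRIzol was used for extraction, the TruSeq v2 kit, which is unstranded, for poly-A RNA and the NEXTflex small RNA v3 kit for footprints. RNA from bases that genes on opposite strands share therefore cannot be told apart. Overlap was judged by whole gene spans, introns included, so overlapping genes need not share exons. Fabp3 overlaps Zcchc17 and Pln overlaps Cep85l by this rule. Whole reads were recovered from the deposited signal for 100% of values in all 8 libraries (tolerance 0.01 reads), and the depths given are sums of these. The deposited ratio differed from the quotient of the deposited signals by at most 0.0497%.

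The value tested was log2((footprints + 1)/(RNA + 1)) of a heart, minus its median over the 9965 genes. It is a ratio of reads per gene and was not corrected for the coding share of a transcript. limma 3.58.1 (R 4.3.3) with treat, a log2 size of 1, a variance trend and Benjamini-Hochberg adjustment was run on all 9965 genes, and checked on simulated data. Pairing by heart follows the labels and the deposited ratio. Over 3186 genes with a mean of at least 500 in both assays, deviations of RNA and footprints of the same heart correlated at 0.279 to 0.498, against a median of -0.15 for different hearts, and centring itself pushes the latter below 0. No 2 libraries of an assay agreed within sampling noise (chi-square per degree of freedom at least 7.17). The labels name separate hearts as replicates.

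Named genes are the 10 highest and 10 lowest called genes with at least 100 RNA reads, the 10 with the most reads in each assay, the 2 highest and 2 lowest of each list, the 5 with the largest SD, those at the minimum, and Nbdy. Naming by protein length was not done, as no protein lengths were used here. Chosen after their values were seen were Rack1, Rplp2, Rps24, Eef1a1, Eef1a2, Eef2, Atf4, Atf5, Per2, Per3, Ryr2, Pln, Col1a1, Atp5g3, Cox7a2l, Xirp2, Npr3, Cs, Mdh1, Eif4a1, Eif4g1, Dcn, Pdgfra, Lyz2, Mrc1, Clock, Cox4i1, Sdhc and the pair of Fabp3 with its pseudogene. Some genes that enter the counts are not reported here by name. The members, the gene lists and the tests were chosen with earlier results of these data known, and the families of near-identical genes after the values were seen. Of 10560 genes with a symbol, 10433 matched RefSeq (GRCm38.p6), which gave biotypes, coordinates and start sequences.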

Additional observations from a re-analysis of the deposited data

Results flagged for a closer look

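For 233 values (log2 ratios of named genes, list medians and library depths) the heart farthest from the others was set against the range of the 4 hearts. In 24 values (10.3%) 1 heart stood apart from the other 3; chance marks about 1 in 20. In 19 of these it was heart 2, whose footprint library was the shallowest at 6671555 reads; the part of depth was not tested. In heart 2 the log2 ratio was higher than in the others for Gm20594 (6.95 against at most 3.49), Tomm6 (3.81 against 3.08), Lyz2 (3.04 against 2.35), Psmb4 (2.65 against 2.45), Dcn (1.97 against 1.42), C1qa, a complement protein of macrophages (1.90 against 0.99), H2afv, a histone variant (0.82 against 0.12), and Myl2 (0.63 against 0.40). It was also less negative for Per3 (-1.09 against -2.56) and Zfas1, the single long noncoding RNA of its list, which overlaps Znfx1 (-1.13 against -3.81). It was lower for Got1 (1.94 against at least 2.10), Mdh1 (1.73 against 1.96), Psma5 (-4.55 against -2.63), Pgk1 (-7.19 against -5.86) and Ddit3 (-7.46 against -1.91), which had no footprint there.

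In other hearts, Tpm1 was at 0.74 and Ftl1 at -4.57 in heart 1, against at least 0.84 and -3.56. In heart 3, Acta1, skeletal actin, was at 1.18 and Myh1 at -5.01, against at most 1.05 and -5.79. Mef2d was at -1.81 in heart 4 against at least -1.68. Among list medians, glycolysis was at 0.14 in heart 2 against 0.59 to 0.66, P-body, decapping and deadenylation at -0.34 against -0.43, and erythrocyte markers at -2.36 against -4.15 to -3.86.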

How the results depend on the processing

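The counts of 1212 high and 1738 low genes stayed within 1.5-fold under all alternatives but 1: tested against 0 in place of a 2-fold difference, 3883 genes were high and 3866 low. With each heart left out in turn there were 1024 to 1263 high and 1513 to 1847 low genes, and edgeR on whole reads gave 1410 and 1974. Without the replicate block, that is without pairing by heart, limma gave 1132 and 1667. Without genes with near-identical copies there were 1134 and 1550, and without overlapping genes 1057 and 1503; both were chosen after seeing the data. Of 194 named genes 137 kept direction and side of the threshold under all 16 alternatives that gave them a value. Without the replicate block the calls of Ak3, Ak4, Atp5b, Btg2, Ddit3, Nppa, Nsmf, Per2 and Smim15 were lost. Means near 0 turned. With each heart left out in turn, Col5a2 ranged from -0.173 to 0.042 (0.042 without heart 2), Nbdy from -0.330 to 0.255 (-0.330 without heart 2), Notch3 from -0.080 to 0.091 (-0.080 without heart 3), Pln from -0.049 to 0.264 (-0.049 without heart 2), Rack1 from -0.243 to 0.061 (0.061 without heart 2) and Sat1 from -0.208 to 0.191 (0.086 without heart 1, 0.191 without heart 4). With a minimum mean of 50 Nbdy was at -0.0083 and Notch3 at -0.037, without genes with copies at -0.0033 and -0.032, and with the deposited ratio Notch3 was at -0.0030. Sat1 was at 0.016 with a minimum mean of 1. The cause was not tested. Of 34 list medians 3 changed sign: heat shock chaperones (-0.06 to 0.47), natriuretic peptides (-0.06 to 0.05) and replication-dependent histones (-2.36 to 0.94). The planned ratio per coding and exonic base was not run, as no such lengths were used here. Depth limits heart 2 most, where 1 footprint read counts as 3.45.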
